A study of Mus musculus with 80 samples.

Results

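The regions described here are 18128 coding-exon sites of the PPARγ-null (KO) livers in an RXR ChIP-Seq study of mouse liver. Overlapping peaks of 40 ChIP libraries on chromosomes 1 to 19, X and Y were merged into 215015 sites, of which 31636 were called (held a peak) in at least 3 of the 20 KO livers. A site was kept when its strongest summit, the peak position with the highest -log10 p over the libraries, lay in a coding exon of a protein-coding gene and outside any 5′ UTR. The kept sites, called members below, made up 57.3% of the 31636. Members were thus chosen by the peak calls of the KO libraries and by the -log10 p over all 40 libraries. The strongest summit came from a KO library at 17246 members (95.1%) and from a WT library at the rest. The recurrence and strength of the members in KO livers are therefore given as descriptions.

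The study compared 8 groups of 5 livers from male mice aged 5 months. WT C57BL6/J mice and mice with a liver-specific knockout of PPARγ (Alb-Cre crossed to PPARγ-loxP, so that deletion was limited to cells in which the albumin promoter drives Cre) were fed for 12 weeks on 1 of 4 diets: control diet alone (Control) or carrying pioglitazone (Pio), and high-fat diet alone (HFD) or carrying it (HFD-Pio). A Cre-only or loxP-only group was not analysed here. Each liver came from a separate animal. The labels name an RXR antibody for the 20 WT and the 5 KO Control ChIP samples and none for the other 15 KO samples, whose titles name RXR.

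RXR is a nuclear receptor that pairs with other nuclear receptors, PPARγ among them, and binds DNA at paired hexamer elements, most of which lie in promoters, introns and intergenic DNA. The PPARγ-RXR pair binds direct repeats of AGGTCA with 1 base between them, and pioglitazone is a PPARγ agonist. Coding exons are short stretches of protein-coding sequence separated by introns, and spliced mRNA holds the exons without the introns.

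Depth, peak cutoff and genotype went together. The WT libraries kept 2035170 to 4256749 tags after removal of duplicates and the KO libraries kept 627698 to 1057899, while the authors called peaks at a p cutoff of 0.001 in WT and a q cutoff of 0.05 in KO livers. WT and KO values are therefore set side by side without a test, and the effect of genotype cannot be told apart from depth and cutoff. KO Control replicate 4 and KO HFD replicate 5 had the fewest peaks of the KO libraries (7648 and 8327, against 14739 to 30444 in the other 18), and results that rest on them are also given without them.

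The windows below show the intron-exon border next to the summit at 5 of the strongest members, to show where the sites lie relative to the exon. Each is read on the coding strand from mm10 (GRCm38), 5′ to 3′, with the last 15 intron bases in lower case and the first 15 exon bases in capitals. In each window the intron ends in ag, the usual acceptor dinucleotide.
Tubb5: cttactgcattccagGTCAGTCTGGGGCAG
Actb: tatttttctctacagATCATGTTTGAGACC
Tubb3: cttctctcctcatagGTCAGAGTGGTGCTG
Tubb2b: cctttgctctttcagGCCAGAGTGGTGCAG
Hsp90ab1: cttgattgtccacagGTGACAATCTCCAAT

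The Tubb5 window is chr17:35836025-35836054 (minus strand), at the start of coding exon 4 of 4, and the summit lay 423 bp into an exon of 2119 bp. The Actb window is chr5:142904768-142904797 (minus strand), before coding exon 3 of 5, with the summit 147 bp into an exon of 439 bp. The Tubb3 window is chr8:123420592-123420621 (plus strand), before coding exon 4 of 4, with the summit 258 bp inside. The summits of Tubb2b (chr13:34128517-34128546, minus strand, coding exon 4 of 4) and Hsp90ab1 (chr17:45568548-45568577, minus strand, coding exon 9 of 10) lay 92 and 138 bp past the border. The rule places the strongest summit on the exon side.

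Coding exons covered 1.31% of the genome searched and held 506 sites of at least 3 KO livers per megabase. The density was 229 per megabase in 3′ UTRs, 124 in 5′ UTRs, 3.05 in introns and 0.918 outside protein-coding genes. Within the 5153 genes that held a member, coding exons carried 1600 sites per megabase and introns 7.53 per megabase (2378 intronic sites in 316 megabases), a comparison fixed in part by the choice of those genes. The rule used only the strongest summit of a site. Of 132446 other KO summits at the members, 84.2% also lay in a coding exon, with a median distance of 48 bp from the strongest summit, and 8.24% lay in an intron. In WT livers with Pio, 91.0% of 8954 summits at the members lay in a coding exon, against 48.9% of 92 in WT livers without Pio.

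**Figure D1:**
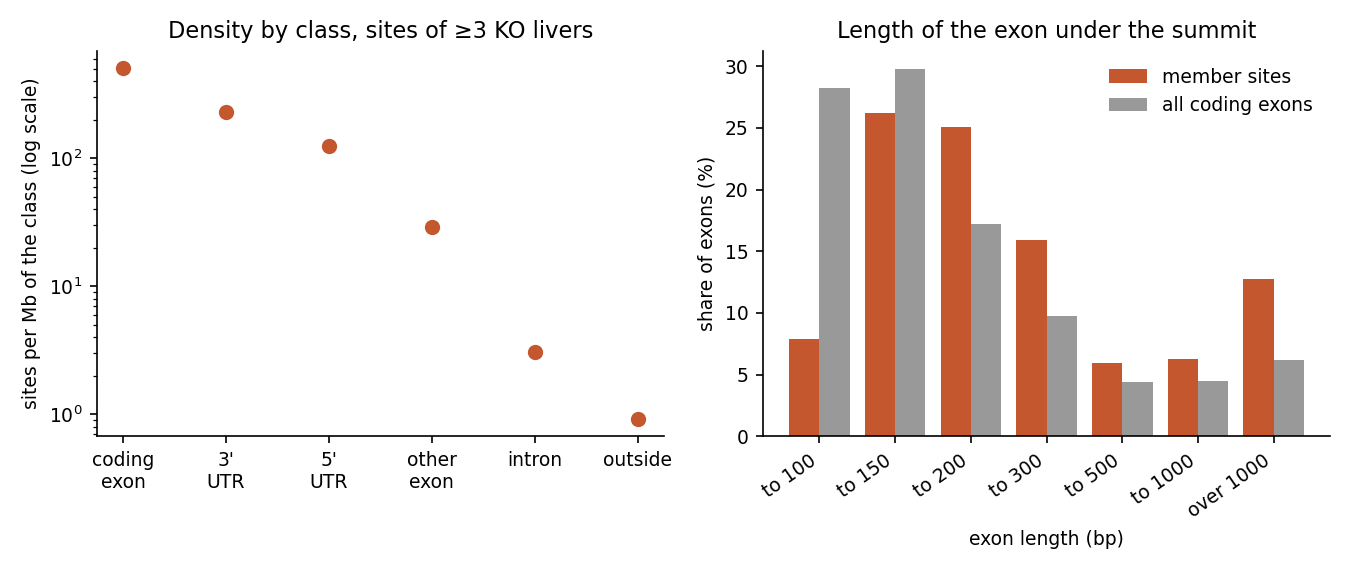
Left, sites called in at least 3 KO livers per megabase of each class of sequence (log scale); coding exons stand at 506 and introns at 3.05. Right, length of the exon under the member summits (orange) and of all coding exons (grey), in percent; exons of up to 100 bp hold 7.90% of the members but are 28.2% of all coding exons.

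The exon under a summit was longer than the usual coding exon, with a median of 179 bp for members and 135 bp for all 199125 coding exons of 1 transcript per gene. Exons of up to 100 bp made up 28.2% of coding exons and held 7.90% of the members, while exons over 150 and up to 200 bp were 17.2% of exons and held 25.1%. Longer exons offer more bases: exons of up to 100 bp held 11.3% of coding bases, those over 150 and up to 200 bp 15.9%, and those over 1000 bp 24.04% of the bases but 12.7% of the members. Members were a median of 342 bp wide and 69.1% of them ran past both ends of the exon, and their summits, which the rule keeps inside the exon, lay a median of 35 bp from its midpoint. Their GC content within 100 bp of the summit had a median of 51.2%, against 42.8% over all sites.

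Members were more frequent toward the 3′ end of the coding sequence. With the coding sequence cut into 5 equal parts, these held 15.8, 19.4, 20.8, 21.3 and 22.7% of the members from first to last. Among the 929 members called in all 20 KO livers (core members, in 563 genes) the first of the 5 held 12.9% and the last 28.6%. Members called in a WT liver with Pio were placed similarly, with 14.7% of 2853 in the first and 28.6% in the last. The rule drops coding summits that also lie in a 5′ UTR but keeps those that also lie in a 3′ UTR. It can thus lower the first part, and how much of the rise it gives was not tested. Single-exon genes held 0.684% of the members and 1.24% of all coding exons, but 0.153% of the coding exons of genes with a member.

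The element of the PPARγ-RXR pair was about as frequent at the members as elsewhere. Direct repeats of AGGTCA with 1 base between them, searched on both strands of the 100 bp on either side of the summit with at most 2 mismatches, were found at 475 members (2.62%) and at 2.26% of all 215015 sites. With at most 1 mismatch the shares were 0.254% (46 members) and 0.311%. Other spacers were searched with at most 2 mismatches. Those of 0, 2, 3, 4 and 5 bases were found at 3.32, 1.94, 3.15, 1.96 and 2.11% of the members. Over all sites, whose GC content was lower, the shares were 2.48, 1.76, 1.95, 1.73 and 1.60%. The 46 members with 1 base between and at most 1 mismatch were called in a median of 7 KO livers and the rest in a median of 6. Of those called in most KO livers, 3 from different genes are shown as close matches among recurrent members, with the repeat in capitals.
Map2: gggagcacAGGTCACAGGGCAcctattcag
Armcx4: tggctggcAGGGCAGAGGTCAagaaagaag
Celsr3: aggggcctgAGGTCAGAGGTCAggcttaag

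The Map2 window (chr1:66380687-66380716, plus strand) is in coding exon 1 of 12 of a gene for a neuronal microtubule-associated protein, and its site was called in 20 KO and 0 WT livers with a median fold enrichment of 12.7. Like it, the window of Armcx4 (chrX:134689871-134689900, plus strand) differs from the repeat at 1 base. The Celsr3 window (chr9:108837920-108837949, minus strand) matches it with 0 mismatches, in coding exon 15 of 36 of a cadherin gene expressed in neurons, and its site was called in 17 KO livers with a median fold enrichment of 4.62. A match is a description of letters and not a binding site.

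Most members were called in few livers. Exactly 3 KO livers called 3462 members (19.1%), and the median was 6 of 20. The 3462 members just inside the limit had a median fold enrichment of 3.77 and the 5921 coding-exon sites just outside it, called in 2 KO livers, had one of 3.76. Strength and recurrence went together, with a median fold enrichment of 4.26 for members of 10 livers and 7.94 for core members. The share called in at least 1 WT liver was 8.38% for members of 3 KO livers and 41.3% for core members, and 84.0% of all members were called in no WT liver. That share was 82.5% for intronic, 87.6% for 3′ UTR and 88.6% for 5′ UTR sites of at least 3 KO livers, and 48.8% for those outside protein-coding genes.

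**Figure D2:**
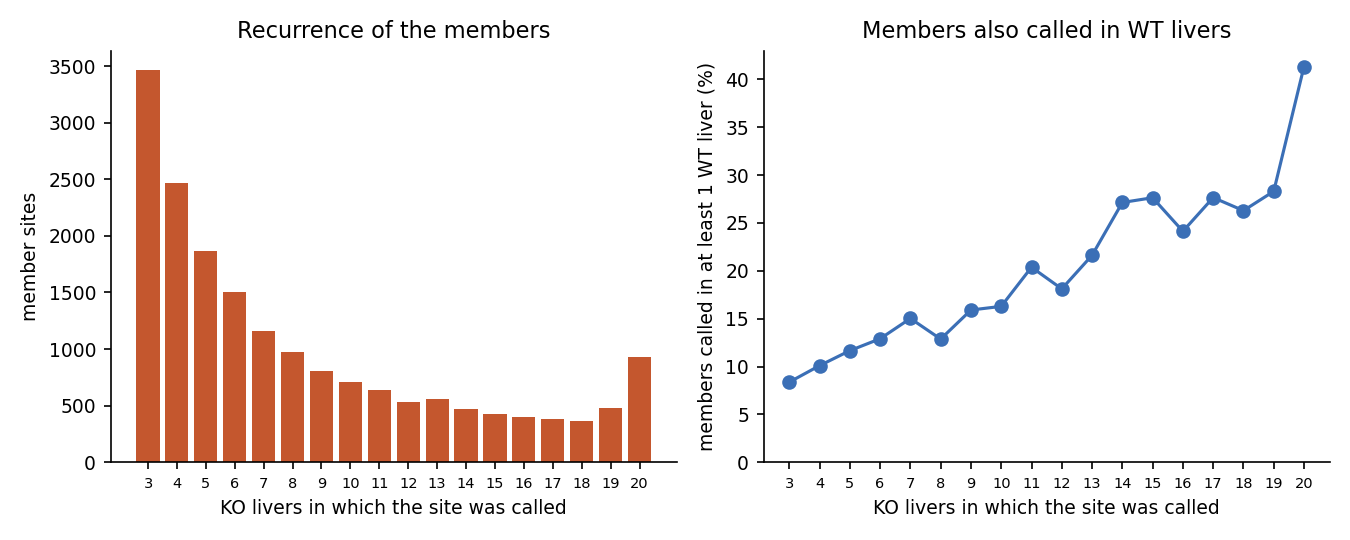
Left, number of member sites by the number of KO livers (3 to 20) in which each was called; 3462 were called in 3 livers and 929 in all 20. Right, the percentage of those members called in at least 1 WT liver, from 8.38% at 3 KO livers to 41.3% at 20.

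The strongest core members lay in genes of the cytoskeleton, protein folding and translation, several of them characteristic of neurons. Tubb5, Tubb3 and Tubb2b encode β-tubulins, of which TUBB3 and TUBB2B are most abundant in neurons. Actb encodes cytoplasmic actin, Hsp90ab1 a chaperone and Eef2 the elongation factor that moves the ribosome along mRNA. Basp1 encodes a membrane protein of growing axons and Map1b a microtubule-associated protein of developing neurons. Tubulin and actin genes have near-identical copies, and how the authors' alignment placed tags that fit several copies is not given in the sources used here, so the split among copies is uncertain.

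Fold enrichment over input at the Tubb5 site (chr17:35833931-35836416) was 42.8, 50.9, 58.4, 40.9 and 40.2 in the KO Control livers and 34.4, 64.9, 31.2, 49.8 and 66.9 in KO Pio. It was 51.7, 60.5, 63.2, 63.6 and 39.6 in KO HFD and 36.4, 72.4, 46.9, 51.5 and 55.2 in KO HFD-Pio. The 4 groups overlapped throughout, and the median over the 20 livers was 51.2. The site was called in 7 of 10 WT livers with Pio, with a median of 8.45 among them, and in no WT liver without Pio.

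At the Actb site (chr5:142903086-142904912) the KO Control values were 31.1, 53.9, 56.7, 51.8 and 60.4, and the KO Pio values were 48.5, 47.4, 34.4, 71.8 and 54.9. KO HFD gave 57.9, 44.8, 49.6, 50.1 and 37.1 and KO HFD-Pio 40.2, 46.0, 64.8, 61.3 and 47.2. All 10 WT livers with Pio called this site too, at 2.50 to 18.4 in WT Pio and 3.59 to 27.4 in WT HFD-Pio, and no WT liver without Pio did.

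The Basp1 site (chr15:25363269-25365043), in a gene with 1 coding exon, differed from Actb in the WT livers. Its KO Control values were 21.8, 49.9, 51.8, 31.5 and 50.5 and its KO Pio values 29.0, 46.1, 46.6, 40.5 and 39.1. KO HFD gave 57.5, 52.4, 35.01, 37.2 and 46.4 and KO HFD-Pio 43.5, 39.1, 26.2, 39.9 and 35.6. At a median of 40.2 in KO livers only Tubb5, Actb and Tubb3 were stronger among core members, yet it was called in 0 of 20 WT livers.

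Map1b (chr13:99429011-99435826) was similar, with 20.9 to 34.3 in the KO livers and a call in 1 WT liver (WT Pio replicate 3, 3.64). Tubb3 had 30.4 to 58.4, Tubb2b 25.2 to 50.6, Hsp90ab1 20.8 to 41.1 and Eef2 23.1 to 45.4 in the KO livers, and they were called in 9, 5, 7 and 6 WT livers. KO groups overlapped at each of these sites.

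**Figure D3:**
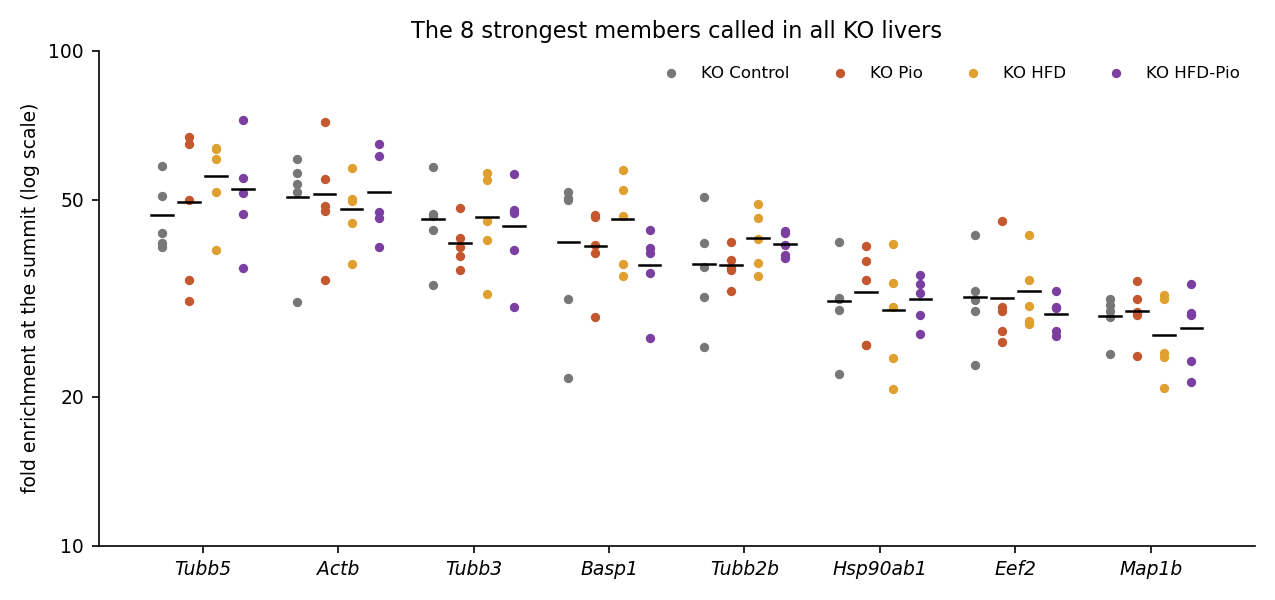
Fold enrichment at the summit (log scale) of the 8 strongest core members, 1 per gene, in each KO liver, coloured by group, with a bar at each group's mean (n = 5). The 4 groups overlap at every site; Tubb5 runs from 31.2 to 72.4 and Map1b from 20.9 to 34.3.

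The members called in most WT livers were of 2 kinds. The sites in Gm10800 (chr2:98666109-98667443) and Gm10801 (chr2:98663607-98664169), predicted genes in a stretch of chromosome 2 known for high signal in many sequencing libraries, were called in 20 and 16 WT livers, with and without Pio. Their fold enrichment was low in WT livers, at 1.33 to 3.18 for Gm10800 and a median of 1.70 for Gm10801. In KO livers Gm10800 had 2.75 to 6.80, with a median of 5.73 that was above the 4.06 over all members, and Gm10801 had a median of 2.46. The sites in Ubb (ubiquitin), Rps3 (a ribosomal protein) and Tob1 (an antiproliferative protein) were called in 11 WT livers each: all 10 with Pio and 1 WT Control. At the Ubb site the WT Pio values were 10.5, 11.9, 28.7, 3.88 and 16.2, and the WT HFD-Pio values were 20.02, 9.49, 4.80, 31.0 and 14.9.

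Genes with many members were long genes of many exons, and nearly every site was in an exon of its own. Macf1, which links actin and microtubules, held 52 members in 52 of 98 coding exons. Huwe1, a ubiquitin ligase, held 51 in 51 of 81. Lrp1, an endocytic receptor, held 48 in 48 of 89, Hectd4 held 45, and Reln, an extracellular protein of the developing cortex, held 40 in 40 of 65 exons. Of the 5153 genes, 1904 held 1 member and 346 held 10 or more, together 5111 members. In 6435 pairs of adjacent coding exons both exons held a member.

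The genes that held members were compared with lists of genes by tissue and process, given as counts beside the share over all 21911 protein-coding gene symbols, of which 23.5% held a member. Among 48 neural genes, 37 (77.1%) held 234 members, 45 of them core. They include the synaptic genes Snap25, Syp and Syt1 and the neuronal cytoskeleton genes Map2, Mapt, Nefl and Ina. The genes of this list with the most members were the spectrin genes Sptan1 and Sptbn1. These held 26 each, 11 and 3 of them core. The strongest members of the list were those of Map1b and of Gap43, a growth-cone protein, whose median fold enrichment in KO livers was 22.1. The 11 without a member include the myelin genes Mbp, Mog and Mag and the astrocyte gene Gfap. A list of developing neuron genes, written after the leading genes had been seen and so not independent of them, had 26 of 30 genes with 156 members, among them Dcx, Tbr1 and Neurod6. Reln, which is also in the stellate cell and matrix list, held 40 of the 156. Gap43 and Stmn2 are in the neural list too, and Tubb3 is in the tubulin list. A list of glial and myelin genes, added in the same way, had 3 of 14.

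Genes that define the hepatocyte were nearly without members. Of 44 genes for secreted hepatocyte proteins 3 held one (Ttr, Vtn and Apoe, 6.82%), and of 40 hepatocyte enzymes and transporters 3 did (Glul, Aldh2 and Gstm1, 7.50%). Ttr had a core member with a median fold enrichment of 20.4 in KO livers, and that of Apoe was 11.1. Each of these sites was also called in 1 WT Control liver, at 4.96 for Ttr and 14.1 for Apoe, and in no other WT liver. Alb, Apoa1, Apob, Fgb, Cps1 and Cyp2e1 held none, and none of the 4 coding-exon sites found in Alb in any library was called in a KO liver. Endothelial (11 genes), lymphoid (11), intestinal (22), pancreatic acinar (14), kidney (12), lung (9) and testis (12) lists held 0 members. Kupffer cell and macrophage markers held 1 member (C1qb) in 12 genes and cholangiocyte markers 1 (Krt7) in 8. Smooth muscle genes had 8 of 16 with members, led by Flna, and skeletal and heart muscle genes 2 of 20, both actins. The globin genes Hbb-bs, Hbb-bt, Hba-a1 and Hba-a2 held 5 members, while the other 5 erythroid markers and the embryonic globins Hba-x, Hbb-bh1 and Hbb-y held none. The sample labels give liver as the tissue of all 20 KO libraries. Peaks measure enrichment of DNA fragments and not expression, and the part of any cell type or tissue in these calls was not tested.

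Processes used by most cells were frequent. In oxidative phosphorylation 63 of 86 nuclear genes (73.3%) held 171 members, with the 2 strongest in Atp5b, the catalytic subunit of ATP synthase, at median fold enrichments of 16.8 and 16.2. Chaperones had 29 of 36 genes and 167 members, translation factors 47 of 68 and 214, cytosolic ribosomal proteins 44 of 85 and 66, tubulins 13 of 17 and 26, and actins and calmodulins 8 of 9 and 18. Glycolysis had 13 of 22, led by Aldoa and Pkm. Lipid synthesis, mostly cholesterol and fatty acid enzymes, had 19 of 30 genes and 93 members, led by Fasn (fatty acid synthase, 11.3) and Hmgcs1 (10.2). Fatty acid oxidation, a main task of the hepatocyte, had 4 of 30, Hadha and Echs1 among them, and 0 core members. Stellate cell and matrix genes had 10 of 17 with 105 members and 0 core members, most of them in Reln, Fn1 and collagen genes, with Sparc called in most livers (19). Reln, counted also among the developing neuron genes, held 40 of the 105.

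The lists also differed in how many members WT livers with Pio called. Over all members the share called in at least 1 of those 10 livers was 15.7%. It was 54.4% for oxidative phosphorylation (93 of 171), 75.8% for ribosomal proteins, 53.9% for chaperones and 44.9% for translation factors. For neural genes it was 5.98% (14 of 234), and for lipid synthesis 13.98%. Each KO liver called 110 to 188 of the 234 neural members, each WT Pio liver 0 to 7, each WT HFD-Pio liver 1 to 7 and each WT liver without Pio 0 or 1. Of the 171 oxidative phosphorylation members the KO livers called 35 to 121, the WT Pio livers 14 to 86, the WT HFD-Pio livers 15 to 76 and the WT livers without Pio 0.

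**Figure D4:**
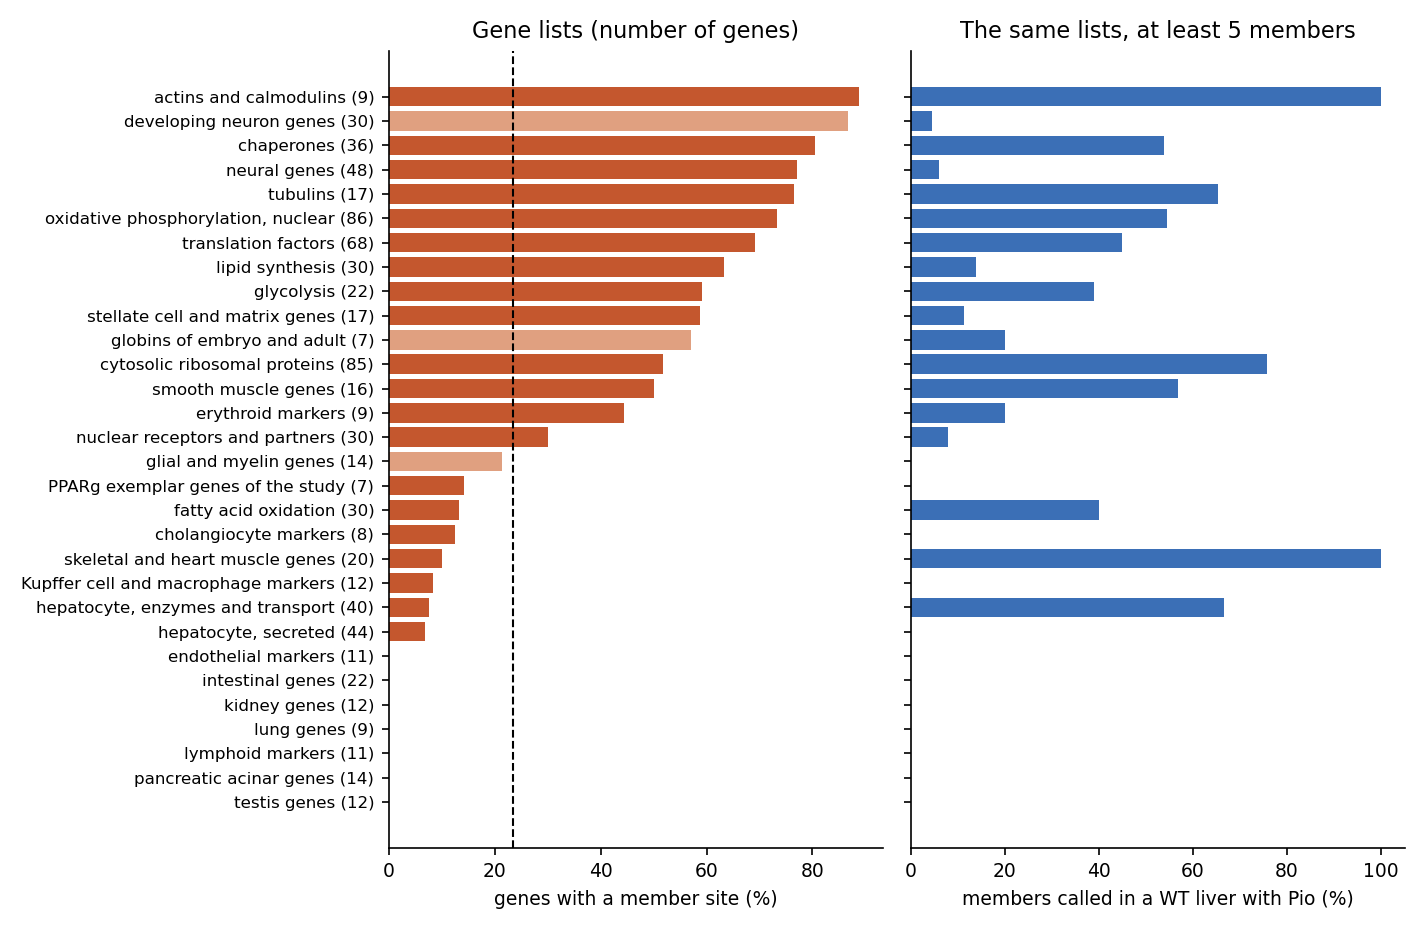
Left, percentage of the genes of each list that held a member site, with the number of genes in brackets and the share over all protein-coding genes, 23.5%, as a dashed line; pale bars are lists added after the data were seen. Right, percentage of each list's members called in at least 1 WT liver with Pio, for lists with at least 5 members. Neural genes are high on the left (77.1%) and low on the right (5.98%), oxidative phosphorylation is high in both.

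Of 30 nuclear receptors and partners 9 (30%, against 23.5% over all genes) held 63 members, with 29 of them in the corepressor gene Ncor1 and 8 in the coactivator gene Ncoa1. The strongest were 2 core members in Thra, a thyroid hormone receptor, at 13.997 and 13.6. Rxrb held 1 member (chr17:34033499-34033795, coding exon 3 of 10, 3 KO livers, 3.70) and Rxra none. Pparg itself (chr6:115360951-115490399) held none: its 7 coding-exon sites were called in up to 6 of 10 WT livers with Pio, in 0 WT livers without Pio and in 0 of 20 KO livers. Peak lists do not show the deleted DNA, so this is no check of the knockout. Of the 7 PPARγ exemplar genes of the study, Cav1 held a member (chr6:17339062-17339360, coding exon 3 of 3), called in 4 KO livers and 4 WT livers with Pio at median fold enrichments of 3.32 and 3.31. Cd36, Cfd, Cidec, Fabp4, Mogat1 and Plin4 held none.

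Whether diet or pioglitazone moved the number of members called was compared among livers of 1 genotype. The rule pooled KO livers without regard to treatment and used no WT call for its minimum. WT libraries did enter the rule through the strongest summit, which came from a KO library at 95.1% of the members and from a WT library at the rest. How far this moved the WT contrasts was not tested. In KO Control the livers called 27.1, 45.1, 47.5, 16.7 and 43.5% of the members, and in KO Pio 48.5, 45.0, 43.9, 55.9 and 42.5%. KO HFD livers called 46.6, 41.3, 54.5, 38.5 and 18.95% and KO HFD-Pio livers 36.6, 42.7, 48.6, 42.8 and 39.7%. The ranges overlapped between all 4 groups, and the lowest liver of KO Control and of KO HFD were the 2 libraries with the fewest peaks.

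No difference among the KO groups passed the test. The mean was 47.2% ± 5.35 in KO Pio and 36.0% ± 13.4 in KO Control (SD, n = 5 each), a difference of 11.2 points (exact two-sided permutation test, p = 0.167, adjusted p = 0.267 over 8 contrasts). HFD-Pio minus HFD in KO livers was 2.09 points (exact permutation p = 0.794, adjusted p = 0.794), HFD minus Control 4.01 points (exact permutation p = 0.667) and HFD-Pio minus Pio -5.09 points (exact permutation p = 0.143). Without the 2 libraries of fewest peaks (KO Control replicate 4 and KO HFD replicate 5) Pio minus Control was 6.38 points, HFD-Pio minus HFD -3.16 and HFD minus Control 4.45, and none passed. Without KO Control replicate 4 alone HFD minus Control was -0.805 points, and without KO HFD replicate 5 alone it was 9.27. As a share of the sites called in each liver, Pio minus Control was -1.54 points. The Pio effect was 2.09 points on HFD and 11.2 on control diet, a difference of -9.10 points that did not pass (exact permutation of treatment labels within each diet, p = 0.345, adjusted p = 0.646).

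In WT livers the members were called after pioglitazone and hardly without it. The WT Control livers called 0.0496, 0.143, 0.0496, 0.0717 and 0.0993% of the members (9 to 26 sites) and the WT HFD livers 0.0110 to 0.0331% (2 to 6 sites). The WT Pio livers called 5.71, 6.50, 11.6, 1.01 and 6.60% (183 to 2100 sites) and the WT HFD-Pio livers 9.61, 0.778, 1.08, 7.70 and 3.68% (141 to 1742 sites). Every liver with Pio was above every liver without it.

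**Figure D5:**
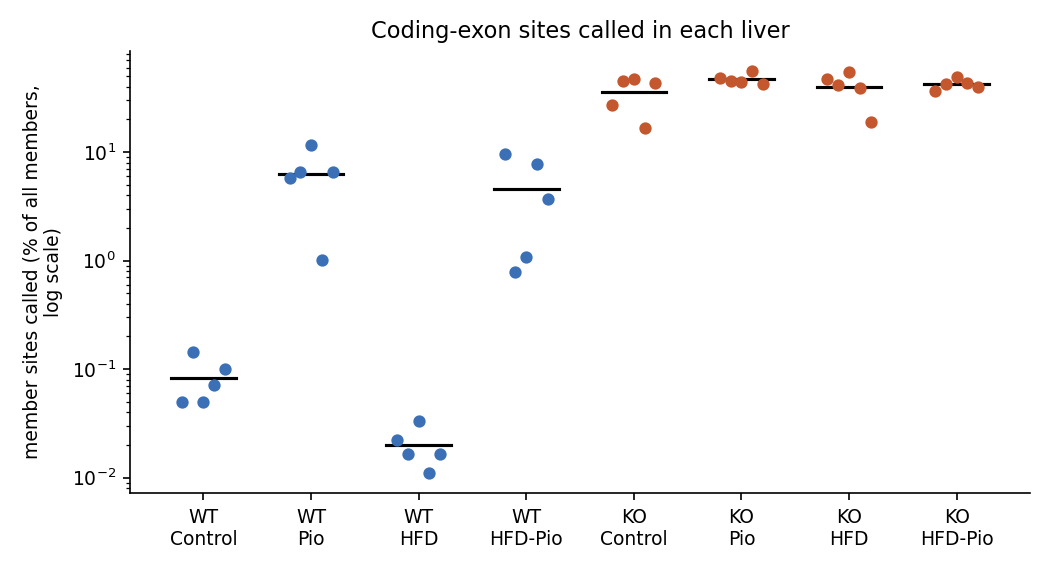
Percentage of the 18128 member sites called in each liver (points; log scale), by group, with the mean of 5 livers as a bar; WT livers in blue, KO livers in orange. WT livers with Pio lie between 0.778 and 11.6%, WT livers without it at or below 0.143%, and KO livers between 16.7 and 55.9%.

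With all 5 livers per group the Pio differences in WT livers passed the test. Pio minus Control was 6.199 points (6.28% ± 3.75 against 0.0827% ± 0.0396) and HFD-Pio minus HFD 4.55 points (4.57% ± 3.96 against 0.0199% ± 0.00837, SD, n = 5), each with an exact permutation p = 0.00794, the smallest that 5 against 5 livers allow, and an adjusted p = 0.0212. Without any 1 WT HFD liver HFD-Pio minus HFD kept its size (4.55 points) but not its call (exact permutation p = 0.0556, adjusted p = 0.148). Every WT HFD-Pio liver still lay above every WT HFD liver. WT HFD minus WT Control was -0.0629 points (exact permutation p = 0.00794, adjusted p = 0.0212), a matter of 2 to 6 sites against 9 to 26 that was lost at a stricter cutoff. WT HFD-Pio and WT Pio did not differ beyond their spread (-1.71 points, exact permutation p = 0.492). The Pio effect did not differ between the diets beyond the spread (-1.65 points, exact permutation p = 0.646).

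The members were also a larger part of what WT livers called after Pio, at 10.5% ± 4.05 of the sites called in WT Pio and 0.523% ± 0.351 in WT Control, and 7.84% ± 4.81 in WT HFD-Pio against 0.292% ± 0.0384 in WT HFD (SD, n = 5, exact permutation p = 0.00794, adjusted p = 0.0317 for both). In KO groups this share was 42.1 to 45.8% on average and no contrast passed (adjusted p from 0.673 to 0.817, exact permutation test).

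Fragment length moved with these calls. The authors' estimate in the file headers was 45 to 48 bp, close to the tag length of 48 to 49 bp, in 6 of the 10 WT libraries with Pio (WT Pio 2, 3 and 5, WT HFD-Pio 1, 4 and 5), and 169 to 292 bp in the other WT libraries. Those 6 libraries called 3.68 to 11.6% of the members and the other 4 with Pio 0.778 to 5.71%. The 4 were above all 10 WT livers without Pio (exact permutation test over both diets, p = 0.000999, the smallest possible). Within each diet, with 2 of these livers against 5, the differences were 3.28 points on control diet and 0.907 on HFD, each at an exact permutation p = 0.0476, the smallest possible, and adjusted p = 0.127, so neither passed. Among the KO libraries the estimate was 119 to 168 bp.

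Coding-exon sites and other sites of the KO livers differed in how often WT livers with Pio called them, in a comparison chosen after the data were seen. Members were called at 5.43% ± 3.75 on average (SD, n = 10 livers) and the 7570 3′ UTR sites of at least 3 KO livers at 3.56% ± 2.44, with the members higher in 10 of 10 livers (exact paired permutation test, p = 0.00195, the smallest possible, adjusted p = 0.00195 over 3 comparisons). The 2877 intronic sites were called more often, at 7.06% ± 4.02, also in 10 of 10 livers (exact paired permutation, p = 0.00195). The 944 sites in 5′ UTRs were called at 3.50% ± 2.71. Classes were set by the strongest summit over all 40 libraries, these 10 among them, and the 10 livers span both diets. Recurrence differed too, with a median of 6 KO livers for members, 7 for 3′ UTR, 5 for intronic and 6 for 5′ UTR sites. The p-values are therefore no independent support, and the part of these limits was not tested.

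Single members that were present in 1 KO group and absent in another were about as frequent as among all sites. Between KO Pio and KO Control, 694 of 8358 members called in 3 or more livers of 1 of the groups were gained (at least 3 of 5 Pio livers and 0 of 5 Control livers, 8.30%), against 8.04% of all 14586 such sites, and 100 were lost (1.196% against 1.71%). For HFD-Pio minus HFD 292 members were gained (3.70% against 3.8%) and 215 lost (2.73% against 2.78%). For HFD minus Control 304 were gained (4.29% against 3.98%) and 151 lost (2.13% against 2.19%), and for HFD-Pio minus Pio 188 were gained (2.09% against 2.16%) and 468 lost (5.22% against 5.27%). Single livers moved these counts by over 1.5 times in every KO contrast. The gain with Pio on control diet was 299 without KO Pio replicate 4 and 1076 without KO Control replicate 3. That of HFD-Pio minus HFD was 131 without KO HFD-Pio replicate 3 and 556 without KO HFD replicate 3, that of HFD minus Control 74 without KO HFD replicate 3 and 535 without KO Control replicate 3, and that of HFD-Pio minus Pio 74 without KO HFD-Pio replicate 3 and 334 without KO Pio replicate 4.

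The named members show how such sites looked. A site in Cox5a, a subunit of cytochrome c oxidase, was called in 5 of 5 KO Pio livers (5.24 to 7.77), 3 KO HFD livers and 0 KO Control or KO HFD-Pio livers. One in Acin1 was called in 0 Control, 5 Pio, 4 HFD and 2 HFD-Pio livers, and one in Rere, a nuclear corepressor, in 4 Control, 0 Pio, 0 HFD and 2 HFD-Pio livers. Trp53bp1 was lost with Pio (4 Control, 0 Pio livers), and Phldb1 and Ptprz1 were called in 5 HFD-Pio and 0 HFD livers. Akap9 and Cap1 showed the opposite, with 5 HFD and 0 HFD-Pio livers. Acat1, a mitochondrial thiolase, and Meis2, a homeobox factor, were called in 5 HFD and 0 Control livers, and Tnik in 4 Control and 0 HFD livers. Grsf1 and Atxn2 were called in 5 HFD-Pio and 0 Pio livers, and Timm13, a mitochondrial import protein, in 5 Pio and 0 HFD-Pio livers. Several of these were present in another group at similar strength, such as Akap9 in 4 Control and 4 Pio livers.

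In WT livers 988 of 1001 members were gained with Pio on control diet (98.7% against 96.4% of all sites) and 554 of 557 on HFD (99.5% against 97.1%), with 1 and 0 lost (background 0.549% and 0.403%). For WT HFD minus Control 0 members were gained and 1 was lost, of 3 called often enough to count (background 2.75% and 22.0%). WT HFD-Pio minus Pio gave 1 gained and 23 lost of 1042 (background 0.386% and 2.77%).

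No change in strength was called at members present in every KO liver of a contrast. Limma on centred log2 fold enrichment tested 1216 members of 2508 sites called in all 10 livers for Pio minus Control, 1402 of 2775 for HFD-Pio minus HFD, 1093 of 2282 for HFD minus Control and 1601 of 3251 for HFD-Pio minus Pio. With Benjamini-Hochberg adjustment it called 0 members in the 4 contrasts, against 0.558% of all sites in the first and 0.0% in the other 3. Without adjustment 58, 85, 54 and 89 members had p below 0.05, which is 4.77, 6.06, 4.94 and 5.56% of those tested. In WT livers 45 members were called in all 10 livers of HFD-Pio and Pio and 1 in each other contrast, too few for a fit.

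The median fold enrichment of the 929 core members was 7.92 ± 1.26 in KO Control, 8.501 ± 0.4997 in KO Pio, 8.18 ± 0.818 in KO HFD and 7.75 ± 0.805 in KO HFD-Pio (SD, n = 5). Pio minus Control was 0.12 on the log2 scale (exact permutation p = 0.405, adjusted p = 0.54), HFD-Pio minus HFD -0.08 (exact permutation p = 0.381), HFD minus Control 0.06 (exact permutation p = 0.667) and HFD-Pio minus Pio -0.14 (exact permutation p = 0.103, adjusted p = 0.413). The order of the core members was alike across livers: the median Spearman rho between 2 livers over the 929 sites was 0.624 within groups (0.499 to 0.679) and 0.625 between groups (0.523 to 0.678). Sites of 1 liver share a library and an input, and rho is given as a description.

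Across the 20 KO livers the share of members called was related to library redundancy and not detectably to the tags kept after removal of duplicates. Its relation to total tags was not tested. With the redundant share of tags (42 to 71%) Pearson's r was 0.711 (permutation test, p = 0.00068, adjusted p = 0.00136) and Spearman's rho 0.635 (permutation p = 0.00297, adjusted p = 0.00594). Without the 2 libraries farthest from the median (KO Control 1 and 4) r was 0.482 (permutation p = 0.0353). With tags kept r was -0.429 (permutation p = 0.059, adjusted p = 0.059) and rho -0.119 (permutation p = 0.619), and without KO Control 4 and KO Pio 4 r was -0.368 (permutation p = 0.134).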

How the data were processed

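RXR ChIP-Seq of 40 mouse livers was analysed from the authors' peak tables, 1 per liver. The authors aligned single reads to mm10 with Novoalign (submitters' processing notes) and called peaks per library against its own input with MACS2 2.1.1.20160309, keeping 1 tag per position, at a p cutoff of 0.001 for WT and a q cutoff of 0.05 for KO, as the file headers give them. The deposited values are the pileup at the summit (signal, in tags), the -log10 p and -log10 q, and fold enrichment, a ratio of ChIP to local input background. The deposited narrowPeak files repeat these peaks and were not used. Reads per site are not used here, so no count model was fitted and no counting interval was computed.

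Peaks that overlapped by at least 1 bp were merged, and a liver's value at a site is that of its strongest summit. Summits were placed on GENCODE M21, with 5′ UTR before coding exon before 3′ UTR, and 1 transcript per gene (principal where marked, otherwise the longest coding sequence) gave exon numbers. Sequences were read from the RefSeq GRCm38.p6 genome. Members and gene lists were chosen with earlier results of these data known, and 3 lists after the leading genes were seen. Shares and core medians were compared by exact two-sided permutation tests of group means with Benjamini-Hochberg adjustment over 8 and 4 contrasts, the Pio effects over 2 genotypes and the correlations (100000 resamples) over 2 measures. Limma 3.58.1 (R 4.3.3) with a trend was fitted across all sites called in all 10 livers, and on simulated data recovered 95 to 99 of 100 sites changed by 1.5 on the log2 scale and 100 of 100 changed by 3, with 0 to 2 false calls. Scripts ran on Python 3.11.15 with pandas 2.3.3, scipy 1.17.1, numpy 2.4.6 and pysam 0.24.0.

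Named sites are the 8 strongest core members (1 per gene), up to 2 gained and 2 lost members per KO contrast, limma calls (adjusted p up to 0.05 and at least 2-fold; none), the 5 genes with most members, the 5 members in most WT livers, leading members of gene lists, and Pparg, Rxra, Rxrb, Alb and the exemplar genes. Alternatives were stricter peaks (-log10 q of at least 5), lists of equal length, a summit within 100 bp, members of at least 6 livers, other strength measures, leaving out single livers and a replicate block. Replicate numbers are not stated to pair livers. Over members, deviations from group means of same-numbered livers correlated at -0.478 to 0.0733, which does not settle whether such livers were handled together. Some genes and sites that these rules or lists hold are not reported here.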

Additional observations from a re-analysis of the deposited data

Results flagged for a closer look

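In KO Control replicate 4 the members made up 52.3% of the sites called, against 41.1 to 44.3% in the other 4 livers of its group, a gap larger than the limit for 5 samples. It also had the fewest peaks of the KO libraries (7648). Such a gap arises by chance in about 1 of 20 groups, and 20 group values were looked at. Its part in the group comparisons is given by the values without it.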

How the results depend on the processing

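Replicate numbers are not stated to pair the livers, so the block was used only as an alternative. With a replicate block the WT differences were 6.199 (Pio minus Control), 4.55 (HFD-Pio minus HFD) and -0.0629 points (HFD minus Control), each at an exact permutation p = 0.0625, the smallest 5 pairs allow, and adjusted p = 0.167, so this test could not call them, and no other call changed. Among WT livers with a fragment estimate of at least 60 bp the first 2 were 3.28 and 0.907 points (adjusted p = 0.127, exact permutation test, 2 livers with Pio per diet). WT HFD minus Control was 0 at a -log10 q of at least 5, -0.00993 with lists of equal length and -0.231 as a share of the sites called, and passed in none of these.

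Leaving out 1 liver at a time, the share differences ranged in KO livers from 6.38 to 14.1 points for Pio minus Control, -3.16 to 5.74 for HFD-Pio minus HFD (-3.16 without KO HFD replicate 5, and -3.16 also without KO Control replicate 4 and KO HFD replicate 5 together), -0.805 to 9.27 for HFD minus Control (-0.805 without KO Control replicate 4) and -6.72 to -2.91 for HFD-Pio minus Pio. In WT livers they ranged from 4.87 to 7.52, from 3.29 to 5.50, from -0.0712 to -0.0477 and from -3.03 to -0.388. Without any 1 WT HFD liver neither HFD-Pio minus HFD nor HFD minus Control passed in WT livers. The groups are then unequal, and the two-sided test also counts assignments that put the highest livers in the smaller group. Its p can thus rise while the groups stay fully apart. HFD-Pio minus HFD in KO livers was -0.246 with lists of equal length and -3.71 as a share of the sites called, and Pio minus Control -1.54 as such a share. By pileup scaled to the tags kept the core contrasts HFD-Pio minus HFD and HFD-Pio minus Pio were 0.0428 and 0.00734 (log2). Leaving out 1 liver at a time the 4 core contrasts ranged from 0.0297 to 0.179, from -0.116 to -0.0214, from -0.0294 (without KO Control replicate 1) to 0.12 and from -0.175 to -0.0805. None of these KO values passed.

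Gained and lost counts moved most. At a -log10 q of at least 5, with lists of equal length and at 4 of 5 against 0 of 5 livers, gained members were 207, 133 and 165 for KO Pio minus Control, 82, 122 and 60 for KO HFD-Pio minus HFD, and 138, 117 and 43 for KO HFD minus Control. KO HFD-Pio minus Pio gained 87 at the stricter q and 23 at 4 of 5. Lost members in this order of contrasts were 33, 60, 31 and 119 at the stricter q and 12, 30, 16 and 107 at 4 of 5, and with equal lists 115 for HFD-Pio minus HFD and 93 for HFD minus Control. WT Pio minus Control gained 441, 175 and 654 and WT HFD-Pio minus HFD 143, 81 and 190. WT HFD-Pio minus Pio gained 0 in each and lost 15 at the stricter q and 1 at 4 of 5, and the 1 member lost in WT Pio minus Control and in WT HFD minus Control was 0 there and with a summit within 100 bp. Without 1 liver the KO gains ranged from 299 to 1076, 131 to 556, 74 to 535 and 74 to 334 and the KO losses from 26 to 183, 61 to 360, 39 to 310 and 206 to 734, in the order Pio minus Control, HFD-Pio minus HFD, HFD minus Control, HFD-Pio minus Pio. In WT livers gains ranged from 658 to 992, 190 to 555, 0 to 0 and 0 to 8 and losses from 0 to 1, 0 to 0, 0 to 1 and 3 to 104. At least 6 KO livers left 10331 members and at least 10 left 5888.

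Depth, cutoff and genotype cannot be told apart. A site that was not called is one below the cutoff, and no level is given for it. No reads were used here, so no counting error is given. The 5 livers of a group allow no exact p below 0.00794.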
